A study of Mus musculus with 8 samples.

Results

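The mitochondrial ribosomal proteins were taken as the protein-coding genes of the deposited table whose symbol begins with Mrpl or Mrps followed by a number. The rule found 77 of 21434 genes, of which 48 carried an Mrpl symbol (large subunit) and 29 an Mrps symbol (small subunit). RNA-seq covered pancreatic tissue of 4 Bach2WT and 4 Bach2KO mice, all untreated, on control chow and 18 weeks old, with 2 females (mice 1 and 2) and 2 males (mice 3 and 4) per genotype. Bach2KO mice were homozygous for the allele of the line C57BL/6N-Bach2tm1b(EUCOMM)Wtsi/leg, a constitutive deletion present in the whole body, and Bach2WT mice carried the wild type gene. Each library was made from 1 mouse. Since the deletion was not restricted to a cell type, its effect in pancreatic cells cannot be told apart from effects that reach the pancreas from other tissues.

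Mitochondria keep a ribosome of their own, which translates the few messages encoded in mitochondrial DNA, all of them for subunits of oxidative phosphorylation. Its rRNAs come from mitochondrial DNA, whereas its proteins are encoded in the nucleus, made in the cytosol and imported. The small subunit binds the message and reads the codons, and the large subunit joins the amino acids and releases the chain through its exit tunnel into the inner membrane. Some of the proteins have a counterpart in the bacterial ribosome and others occur in mitochondria only. Acinar cells, which make up most of the pancreas, need much ATP for the synthesis and secretion of digestive enzymes.

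The libraries held 72299745 to 172029360 counts on genes, of which 80.4% to 83.4% fell on 28 genes for digestive enzymes and other acinar products, the defining products of the pancreas. Bach2 itself had 3 to 16 counts in the Bach2KO libraries and 4 to 31 in the Bach2WT libraries. These counts cover the whole gene and not only its deleted part, and they do not check the genotype labels. The 77 members together took 0.0343% to 0.0404% of all counts in Bach2KO mice and 0.0331% to 0.0402% in Bach2WT mice. All 77 passed the filter on low counts that left 12820 genes for testing. The lowest count of a member in a library was 6 and the median count 355.5.

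Levels of different members were compared per gene length, as FPKM in the 4 Bach2WT mice. The large subunit was led by Mrpl28, Mrpl12, Mrpl54 and Mrpl20. Mrpl28, a protein with a bacterial counterpart, had 12.3 ± 1.81 FPKM (SD, n = 4). Mrpl12, the protein of the flexible stalk that calls translation factors to the ribosome, had 11.3 ± 1.44 FPKM (SD, n = 4). Mrpl54, which occurs in mitochondria only, had 11.1 ± 2.2 FPKM (SD, n = 4), and Mrpl20, which has a bacterial counterpart, had 8.71 ± 2.08 FPKM (SD, n = 4). The ranges of these 4 genes overlapped, and their order was not resolved. At the lower end stood Mrpl33 with 0.0799 ± 0.0278 FPKM (SD, n = 4) and Mrpl1, a protein of the stalk where spent tRNA leaves, with 0.0556 ± 0.0505 FPKM (SD, n = 4).

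The small subunit was led by a pair of genes. Mrps21 had 24.5 ± 6.01 FPKM and Mrps24, which belongs to the site where the message enters, 21.9 ± 3.79 FPKM (SD, n = 4 each). Mrps12, a protein of the decoding centre, followed with 8.08 ± 1.45 FPKM and Mrps28 with 5.60 ± 0.574 FPKM (SD, n = 4 each). Mrps21 and Mrps24 overlapped each other, and both lay above the range of Mrps12. The lowest levels were those of Mrps9 with 0.146 ± 0.0880 FPKM and Mrps22 with 0.0879 ± 0.0155 FPKM (SD, n = 4 each). The mean FPKM spanned 221-fold within the large and 278-fold within the small subunit, with medians of 1.57 and 0.936 FPKM. These spans depend on the lengths of the gene models as well. When the members of a subunit were put in order of level, 46 of 47 neighbouring pairs of the large and 26 of 28 of the small subunit had overlapping ranges over the 4 mice. Cytosolic ribosomal proteins, for comparison, had a median of 101 FPKM.

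**Figure D1:**
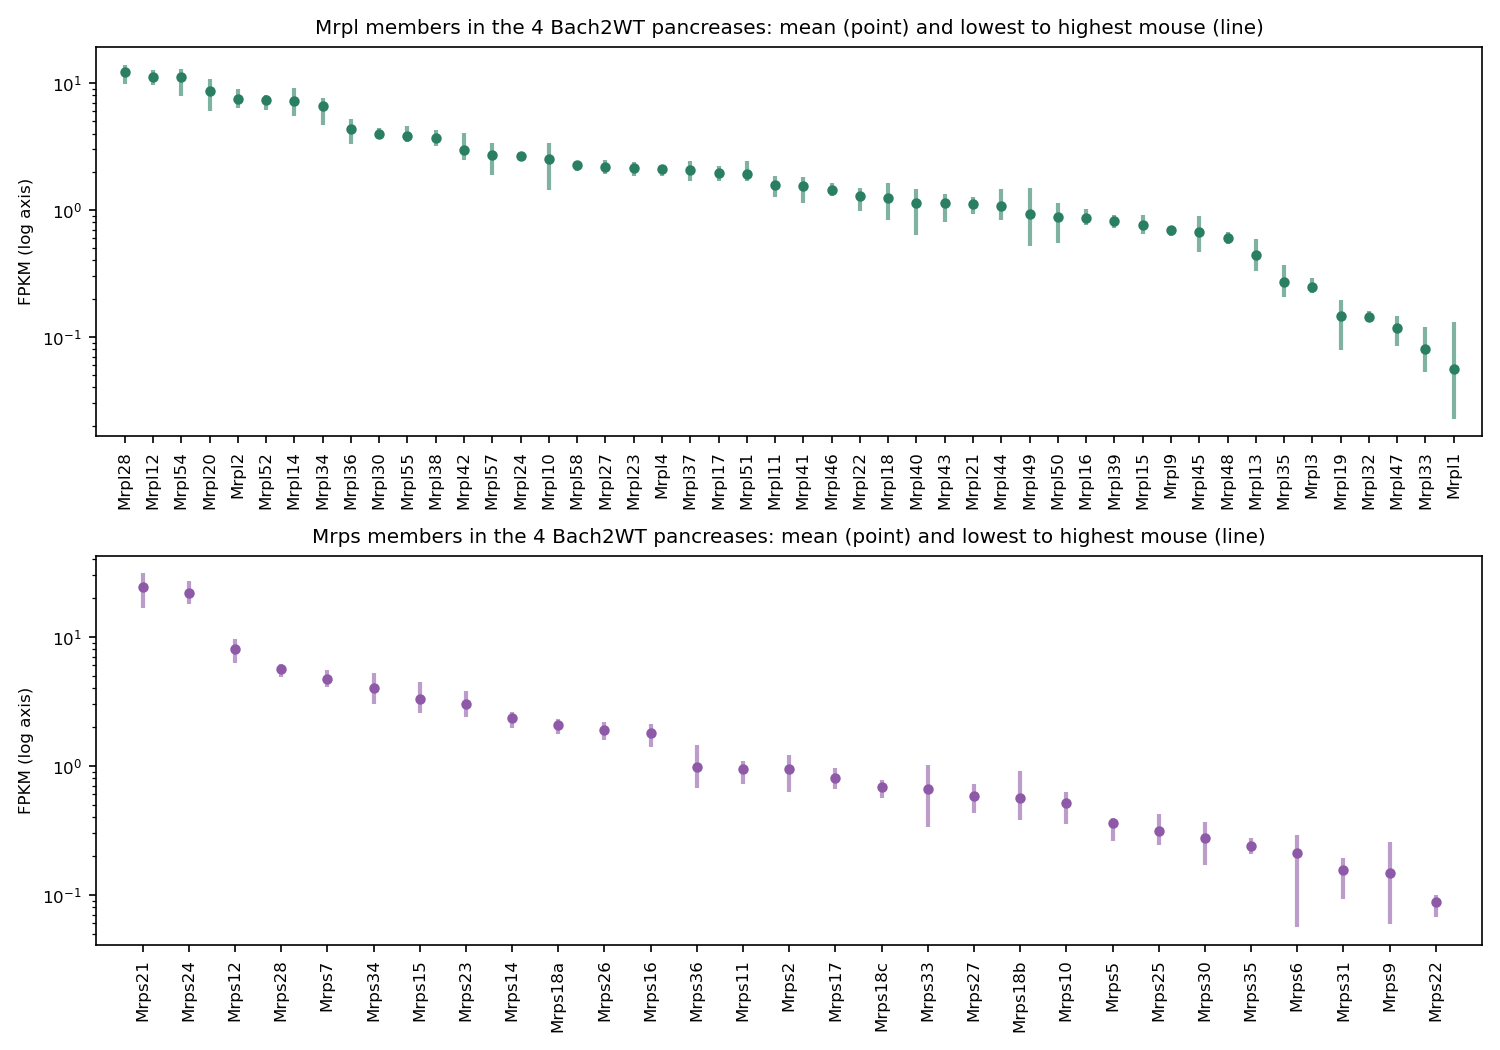
FPKM of each Mrpl member (upper panel) and Mrps member (lower panel) in the 4 Bach2WT mice on a log axis, with the mean as a point and the line reaching from the lowest to the highest mouse. Levels descend gradually from 12.3 FPKM for Mrpl28 to 0.0556 for Mrpl1, whereas Mrps21 and Mrps24 stand apart at the top of the small subunit with 24.5 and 21.9 FPKM.

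For 3 genes, the symbol does not match the place of the protein, as known from the structure of the ribosome. Mrps18a and Mrps30 belong to the large subunit, and Mrps36 is a part of the 2-oxoglutarate dehydrogenase complex and not of the ribosome. They were kept in the Mrps group, in which they were found by symbol. Mrps18a had 6.05 ± 1.23 CPM in Bach2KO and 7.79 ± 0.929 in Bach2WT mice, Mrps30 2.21 ± 0.373 and 1.88 ± 0.568, and Mrps36 1.23 ± 0.123 and 1.27 ± 0.444 (SD, n = 4 each). The median log2 fold change of the 26 Mrps members without these 3 was −0.21, as it was with them.

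The comparison of Bach2KO with Bach2WT mice asked whether the loss of Bach2 was accompanied by another level of these messages in the pancreas. It was made on the counts with the quasi-likelihood test of edgeR over all 12820 genes, after scaling with TMM factors, which bring the bulk of genes to the same level in each library. CPM, the count of a gene per 1e6 counts of its library, are given after that scaling. No Mrpl and no Mrps member passed the threshold of an adjusted p of 0.05. The smallest adjusted p was 0.456 in the large and 0.351 in the small subunit. Only 1 gene of the whole table passed (0.0078%). DESeq2, run as an alternative, called 23 of 14700 genes lower in Bach2KO mice (0.156%), and Mrps24 was the only member among them, with an adjusted p of 0.0137. At an unadjusted p under 0.05, 8 of 48 Mrpl and 7 of 29 Mrps members were lower in Bach2KO mice, beside 3.56% of all genes. In the other direction there was 1 Mrpl member, Mrpl9, and 1 Mrps member, Mrps35, beside 3.9% of all genes.

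These counts depended on single libraries and on the scaling. The 8 Mrpl members became 3 without Bach2KO mouse 4, 3 without Bach2WT mouse 2, 4 without Bach2KO mouse 1 and 5 without Bach2KO mouse 2 or Bach2WT mouse 3. The 7 Mrps members became 1 without Bach2WT mouse 2, 3 without Bach2KO mouse 1 and 4 without Bach2KO mouse 4. With some other mice left out, the counts of both subunits rose. Over all genes, the 457 lower at that p became 454 without Bach2KO mouse 4, 273 without Bach2WT mouse 2 and 304 without Bach2KO mouse 1. They became 289 without Bach2KO mouse 2 and 335 without Bach2WT mouse 3. These fits tested 12530 to 13650 genes. When CPM were computed on the library totals without TMM factors, 0 Mrpl and 1 Mrps member remained lower at that threshold. Over all genes, 47 of 12820 were lower in that fit, in place of 457.

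The median log2 fold change was −0.15 for Mrpl, with 36 of 48 members below 0, and −0.21 for Mrps, with 18 of 29 below 0, while the median of all genes tested was 0.05. Without TMM factors all values moved up, the medians became 0.15 for Mrpl, 0.11 for Mrps and 0.35 for all genes, and 13 Mrpl and 12 Mrps members remained below 0. Relative to the median of all genes, the Mrpl median thus lay between −0.26 and −0.10 and the Mrps median between −0.34 and −0.18 in every fit that was run. The TMM factors were 1.05 to 1.18 in Bach2KO and 0.826 to 1.10 in Bach2WT mice. The digestive enzymes and other acinar products held 80.4% to 82.3% of the counts in Bach2KO and 81.9% to 83.4% in Bach2WT mice. When they were left out of the library sizes and of the TMM factors, the medians were −0.15 for Mrpl, −0.21 for Mrps and 0.05 for all genes. Of the 28 acinar genes, 23 were below 0 with TMM factors and 15 without, with medians of −0.34 and −0.03. With TMM factors, 10 of the 28 (35.7%) were lower at an unadjusted p under 0.05 with edgeR, beside 3.56% of all genes. For 7 (25%), every Bach2KO mouse lay below every Bach2WT mouse, beside 1.92% of all genes. None passed the threshold. Lower levels with this scaling were thus not particular to the members.

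**Figure D2:**
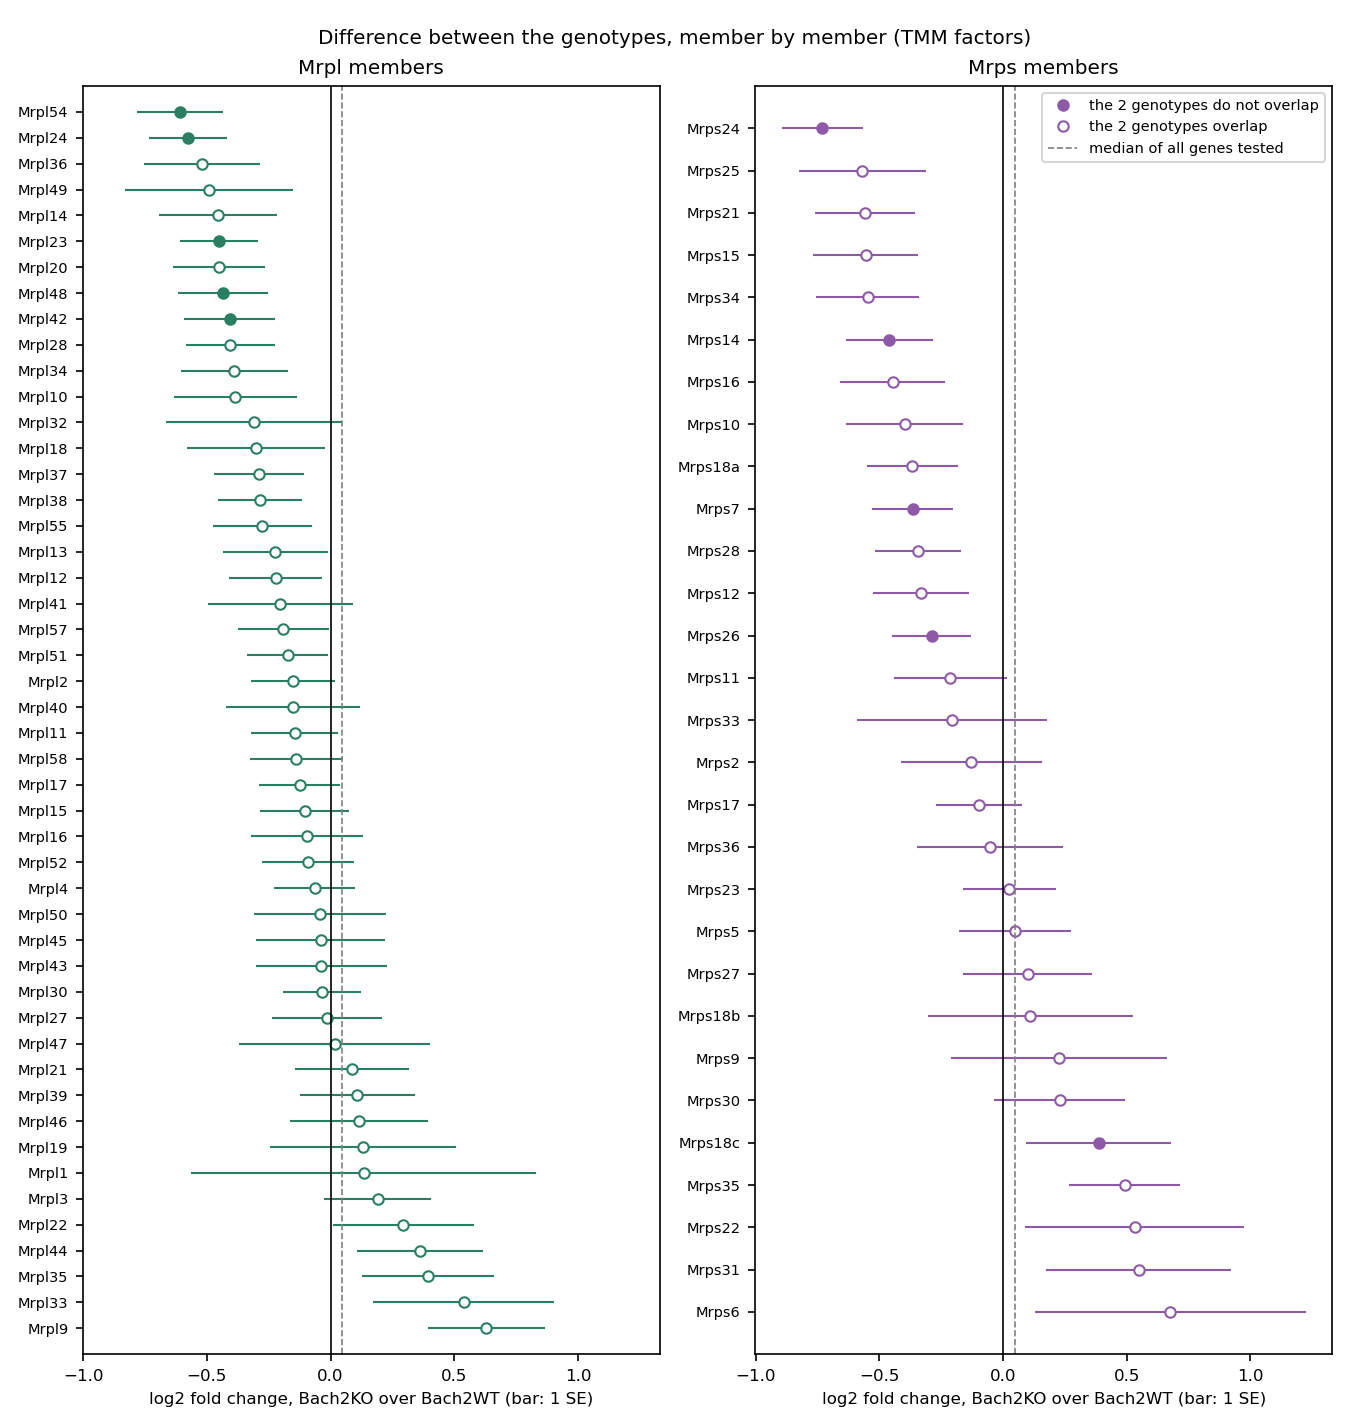
Log2 fold change of Bach2KO over Bach2WT for the 48 Mrpl members (left) and the 29 Mrps members (right) after TMM scaling, with bars of 1 standard error from edgeR, filled points for members whose genotypes do not overlap and a dashed line at the median of all genes tested (0.05). With this scaling 36 Mrpl and 18 Mrps members lie below 0, whereas on library totals without TMM factors 13 and 12 do.

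Mrps24 had the smallest p of all members and the largest difference. Its level was 16.2, 20.1, 20.5 and 21.6 CPM in Bach2KO mice 1 to 4 and 26.9, 32.8, 30.3 and 39.8 CPM in Bach2WT mice 1 to 4. Every Bach2KO mouse lay below every Bach2WT mouse. The log2 fold change was −0.73 ± 0.17 (SE, adjusted p = 0.351 with edgeR), −0.72 in females and −0.72 in males. Without TMM factors it was −0.42, and over all alternatives it lay between −0.81 and −0.42. The gene (ENSMUSG00000020477, GRCm39 chr11:5653983-5665680, minus strand) overlaps Urgcp on the same strand in the deposited coordinates, so that reads shared by both cannot be assigned with certainty.

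Mrpl24, a protein beside the exit tunnel, came first in the large subunit. It had 4.25, 4.32, 3.71 and 3.96 CPM in Bach2KO mice 1 to 4 and 6.26, 6.50, 5.60 and 5.86 CPM in Bach2WT mice 1 to 4. The genotypes did not overlap, and the values of a genotype lay close together. The log2 fold change was −0.58 ± 0.16 (SE, adjusted p = 0.456 with edgeR). The gene (GRCm39 chr3:87826813-87830979, plus strand) overlaps Rrnad1 on the opposite strand.

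Mrpl54 had 6.46, 5.90, 6.34 and 5.69 CPM in Bach2KO mice 1 to 4 and 6.67, 10.8, 9.68 and 10.1 CPM in Bach2WT mice 1 to 4. Bach2WT mouse 1 came close to Bach2KO mouse 1, and the other Bach2WT mice lay well above. The log2 fold change was −0.61 ± 0.18 (SE, adjusted p = 0.513 with edgeR). Mrpl23, another protein at the exit tunnel, had 8.14, 7.57, 6.84 and 8.29 CPM in Bach2KO mice and 9.23, 11.9, 9.59 and 11.5 CPM in Bach2WT mice. The genotypes did not overlap for Mrpl23 either, with a log2 fold change of −0.45 ± 0.16 (SE, adjusted p = 0.570 with edgeR). A processed pseudogene, Mrpl23-ps1, held 568 counts over the 8 libraries against 8633 for Mrpl23.

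For Mrpl20, the Bach2KO mice had 10.6, 10.5, 12.2 and 9.68 CPM and the Bach2WT mice 10.3, 16.6, 13.6 and 18.1 CPM. Here Bach2WT mouse 1 lay among the Bach2KO mice, and the log2 fold change was −0.45 ± 0.19 (SE, adjusted p = 0.641 with edgeR). Of the most abundant members of the large subunit, Mrpl28 had 13.0 ± 2.67 CPM in Bach2KO and 17.2 ± 2.45 CPM in Bach2WT mice, and Mrpl12 had 15 ± 3.78 and 17.5 ± 2.17 CPM (SD, n = 4 each). Both overlapped between the genotypes, and the log2 fold change of Mrpl12 was −0.22 with TMM factors and 0.08 without them.

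Mrpl9 stood on the other side. It had 3.05, 2.87, 3.92 and 1.99 CPM in Bach2KO mice 1 to 4 and 2.04, 1.94, 1.95 and 1.70 CPM in Bach2WT mice 1 to 4. Bach2KO mouse 4 lay within the range of the Bach2WT mice, and the other Bach2KO mice lay above it. The log2 fold change was 0.63 ± 0.24 (SE, adjusted p = 0.616 with edgeR). The next Mrpl members above 0 were Mrpl33, with 0.866 ± 0.203 CPM in Bach2KO and 0.593 ± 0.205 in Bach2WT mice, and Mrpl35, with 1.51 ± 0.160 and 1.15 ± 0.281 CPM (SD, n = 4 each). Both overlapped between the genotypes.

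In the small subunit, Mrps21 had 9.51, 12.3, 13.6 and 14.4 CPM in Bach2KO mice 1 to 4 and 12.6, 23.2, 17.7 and 19.8 CPM in Bach2WT mice 1 to 4. Only Bach2WT mouse 1 fell into the range of the Bach2KO mice, and the log2 fold change was −0.56 ± 0.20 (SE, adjusted p = 0.597 with edgeR). Mrps34, a protein found in mitochondria only, had 4.52, 6.06, 5.16 and 7.26 CPM in Bach2KO mice and 6.38, 11.0, 7.42 and 8.83 CPM in Bach2WT mice. Its genotypes overlapped through Bach2KO mouse 4 and Bach2WT mouse 1, with a log2 fold change of −0.55 ± 0.21 (SE, adjusted p = 0.624 with edgeR).

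Mrps14, which has a bacterial counterpart, had 4.42, 5.59, 6.46 and 6.23 CPM in Bach2KO and 7.64, 8.61, 8.47 and 6.46 CPM in Bach2WT mice. The genotypes did not overlap, but Bach2KO mouse 3 and Bach2WT mouse 4 were nearly equal. Its log2 fold change was −0.46 ± 0.18 (SE, adjusted p = 0.627 with edgeR). Mrps15, likewise of bacterial descent, had 3.43, 3.77, 4.89 and 3.23 CPM in Bach2KO and 5.48, 7.60, 4.96 and 4.39 CPM in Bach2WT mice. Bach2KO mouse 3 and Bach2WT mouse 4 overlapped, and the log2 fold change was −0.55 ± 0.21 (SE, adjusted p = 0.627 with edgeR).

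The Mrps members with the largest values above 0 were low in level. Mrps6 had 0.538 ± 0.229 CPM in Bach2KO and 0.330 ± 0.165 in Bach2WT mice, Mrps31 0.763 ± 0.156 and 0.521 ± 0.145, and Mrps22 0.512 ± 0.169 and 0.356 ± 0.0627 (SD, n = 4 each). Their log2 fold changes of 0.68, 0.55 and 0.53 had standard errors of 0.55, 0.37 and 0.44, and the genotypes overlapped in all 3. Mrps35, chosen after its value was seen, had 2.32, 3.36, 3.59 and 2.54 CPM in Bach2KO and 2.25, 2.41, 1.91 and 1.80 CPM in Bach2WT mice. Its lowest Bach2KO value lay below the highest Bach2WT value, and the log2 fold change was 0.49 ± 0.22 (SE, adjusted p = 0.663 with edgeR).

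**Figure D3:**
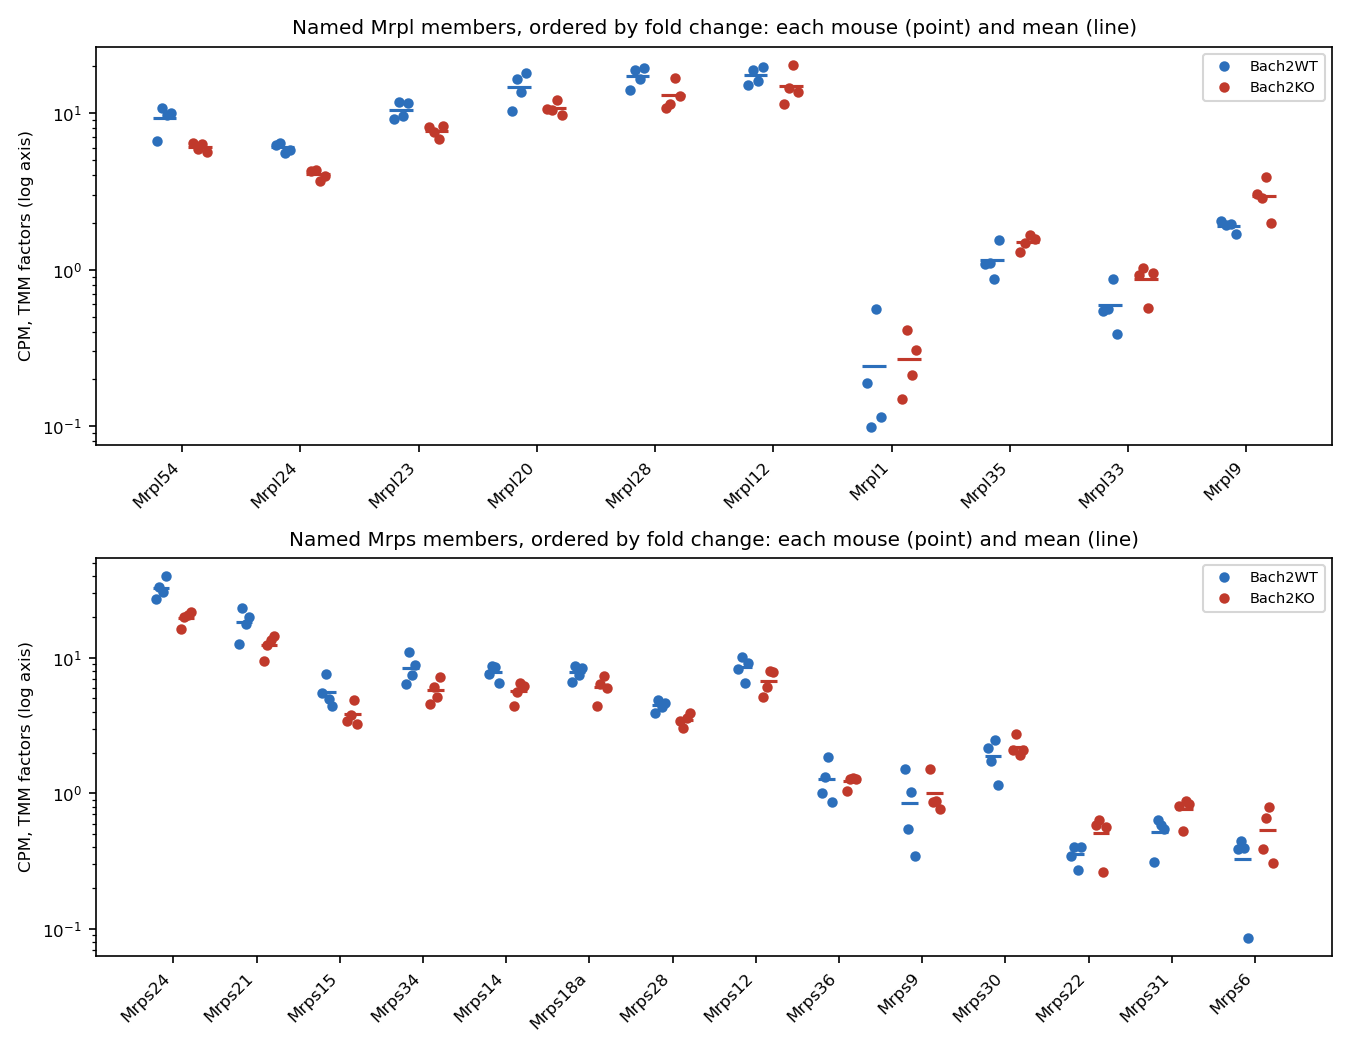
CPM after TMM scaling on a log axis for the 10 named Mrpl members (upper panel) and the 14 named Mrps members (lower panel), each ordered by fold change, with 1 point per mouse and a line at the mean. Mrpl54, Mrpl24, Mrpl23, Mrps24 and Mrps14 show no overlap between the 4 Bach2WT and the 4 Bach2KO mice, and the members at the right of each panel lie at lower levels with a wide spread.

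Counted over all members, 5 Mrpl and 4 Mrps members had every Bach2KO mouse below every Bach2WT mouse, beside 1.92% of all genes tested. Next to Mrps24, Mrpl24, Mrpl54, Mrpl23 and Mrps14, these were Mrpl48, Mrpl42, Mrps7 and Mrps26, which were named after their values were seen. The reverse was found for 0 Mrpl members and 1 Mrps member, Mrps18c, beside 2.57% of all genes. Mrps18c had 0.885 to 1.06 CPM in Bach2KO and 0.605 to 0.853 CPM in Bach2WT mice. Without TMM factors, 8 members in place of 10 did not overlap in either direction. That count pools both directions and has no share over all genes beside it. It therefore does not show whether the members differ from other genes with that scaling.

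Among the members with a promoter entry, the 2 lower members of smallest p in each subunit and Mrpl9, the Mrpl member higher at an unadjusted p under 0.05, are shown with the regulatory sequence at the start of the gene. RefSeq promoter sequences (GRCm38.p6, 250 bases before to 50 bases after the start) were at hand for 68 of the 77 members, 42 Mrpl and 26 Mrps, in 74 windows. Those of Mrps24 (chr11:5707652-5707951 on the - strand), Mrps21 (chr3:95871465-95871764 on the - strand), Mrpl24 (chr3:87919294-87919593 on the + strand), Mrpl23 (chr7:142532782-142533081 on the + strand) and Mrpl9 (chr3:94443086-94443385 on the + strand) are given from 5′ to 3′. Capitals mark matches on either strand to the core of the NRF1 motif (GCATGCGC), the ETS motif bound by GABPA (CCGGAAG), the YY1 motif (AAGATGGC), the SP motif (GGGCGG) and the TATA box (TATAAA).
Mrps24: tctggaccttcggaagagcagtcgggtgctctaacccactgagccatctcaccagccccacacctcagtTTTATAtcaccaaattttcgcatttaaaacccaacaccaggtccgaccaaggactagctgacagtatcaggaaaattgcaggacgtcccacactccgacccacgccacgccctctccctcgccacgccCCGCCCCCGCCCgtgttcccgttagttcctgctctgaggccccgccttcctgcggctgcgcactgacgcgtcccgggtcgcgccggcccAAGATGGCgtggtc
Mrps21: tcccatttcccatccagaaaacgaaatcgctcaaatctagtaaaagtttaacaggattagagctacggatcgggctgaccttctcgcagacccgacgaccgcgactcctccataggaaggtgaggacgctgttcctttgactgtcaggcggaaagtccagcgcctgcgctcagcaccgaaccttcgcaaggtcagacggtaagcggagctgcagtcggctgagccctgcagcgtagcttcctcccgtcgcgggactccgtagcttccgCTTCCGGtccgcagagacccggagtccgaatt
Mrpl24: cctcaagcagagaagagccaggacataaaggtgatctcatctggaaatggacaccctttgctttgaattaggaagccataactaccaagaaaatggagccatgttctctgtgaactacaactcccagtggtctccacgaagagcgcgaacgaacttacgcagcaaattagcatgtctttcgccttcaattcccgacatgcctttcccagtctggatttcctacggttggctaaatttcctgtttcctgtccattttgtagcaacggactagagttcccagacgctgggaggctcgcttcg
Mrpl23: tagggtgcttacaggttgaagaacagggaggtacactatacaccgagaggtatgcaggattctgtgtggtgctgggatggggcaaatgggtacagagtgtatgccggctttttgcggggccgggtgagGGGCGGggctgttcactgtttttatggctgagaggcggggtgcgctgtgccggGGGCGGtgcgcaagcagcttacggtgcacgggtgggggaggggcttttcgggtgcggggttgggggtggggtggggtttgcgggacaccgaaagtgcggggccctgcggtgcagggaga
Mrpl9: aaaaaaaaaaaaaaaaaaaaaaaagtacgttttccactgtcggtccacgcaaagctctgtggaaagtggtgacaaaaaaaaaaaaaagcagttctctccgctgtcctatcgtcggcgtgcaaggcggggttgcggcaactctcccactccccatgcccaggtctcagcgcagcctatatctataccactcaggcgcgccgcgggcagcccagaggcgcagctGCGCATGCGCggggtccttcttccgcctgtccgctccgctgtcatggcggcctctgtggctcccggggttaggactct

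The window of Mrps24 held matches to the YY1, SP and TATA letters, that of Mrps21 a match to the ETS letters and that of Mrpl23 matches to the SP letters. The window of Mrpl9 held the NRF1 letters on both strands, in overlapping positions, and that of Mrpl24 held none of the 5. Across all windows, the ETS letters were found in 29.8% of the Mrpl and 40.7% of the Mrps windows, beside 8.86% of the 32851 windows of the RefSeq table. The YY1 letters were found in 12.8% and 22.2%, beside 2.75%, and the NRF1 letters in 14.9% and 3.7%, beside 2.71%. The SP letters stood in 44.7% and 66.7%, beside 35.7%, and the TATA letters in 6.38% and 7.41%, beside 13.6%. The median GC content of the member windows was 57.7% for Mrpl and 59.3% for Mrps, beside 52.7% for all windows. No factor binding was measured.

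Many members also shared their promoter window with a gene read in the other direction. This applied to 40.4% of the Mrpl windows and 25.9% of the Mrps windows, beside 10.8% of all windows. In 1 case both partners were members: Mrpl46 and Mrps11 are read away from each other from windows that share 141 bases. Mrpl46 had 2.24 ± 0.942 CPM in Bach2KO and 2.06 ± 0.198 in Bach2WT mice, and Mrps11 1.78 ± 0.179 and 2.07 ± 0.372 (SD, n = 4 each). Neither differed beyond the spread between mice. In the deposited coordinates, 31 members overlap another gene of the table, and 26 of them only on the opposite strand, where reads can be told apart only if the strand was used in counting. This is not given in the sources used here.

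The subunits were also summed in each library. The 48 Mrpl members together had 193, 221, 248 and 222 CPM in Bach2KO mice 1 to 4 and 233, 290, 249 and 263 CPM in Bach2WT mice 1 to 4. The highest Bach2KO mouse lay above the lowest Bach2WT mouse. The 29 Mrps members had 98.1, 119, 125 and 126 CPM in Bach2KO mice and 131, 169, 148 and 159 CPM in Bach2WT mice, without overlap after TMM scaling. On library totals without TMM factors this separation was lost, with 115, 127, 131 and 146 CPM in Bach2KO mice and 145, 145, 123 and 132 CPM in Bach2WT mice. The Mrpl sums changed their order with it, from a lower mean in Bach2KO mice to 245 ± 15.8 CPM in Bach2KO and 233 ± 23.8 CPM in Bach2WT mice (SD, n = 4 each), with overlap. After TMM scaling, Bach2KO mouse 1 was the lowest of the 8 libraries for 20 Mrpl and 11 Mrps members, and Bach2WT mouse 2 was the highest for 17 and 11. The ratio of the Mrps to the Mrpl sum does not depend on the scaling of a library. It was 0.507, 0.537, 0.504 and 0.567 in Bach2KO mice and 0.564, 0.583, 0.594 and 0.604 in Bach2WT mice, so that Bach2KO mouse 4 and Bach2WT mouse 1 overlapped. After TMM scaling, Mrps24 and Mrps21 contributed a mean of 32.5 and 18.3 CPM to the mean Mrps sum of 152 CPM in Bach2WT mice.

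**Figure D4:**
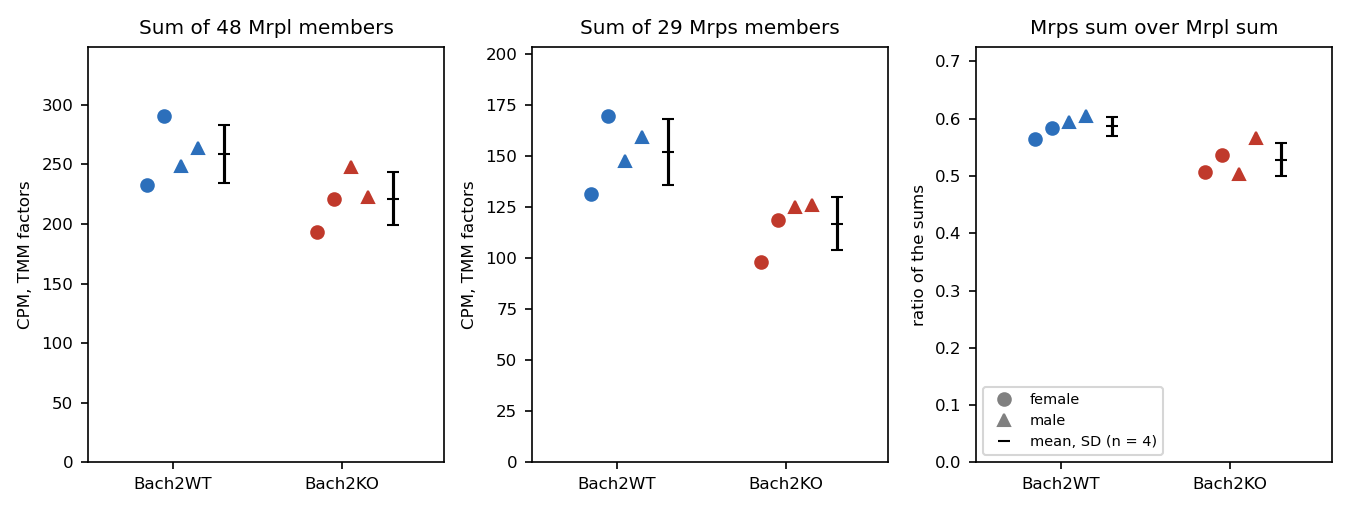
Summed CPM of the Mrpl members (left) and the Mrps members (middle) after TMM scaling, and the ratio of both sums (right), with circles for females, triangles for males and bars for the mean and SD of the 4 mice per genotype. The Mrps sums do not overlap with this scaling (98.1 to 126 against 131 to 169 CPM) but do on library totals (115 to 146 against 123 to 145 CPM). The Mrpl sums overlap with both. The ratios, which alone are free of the scaling, overlap as well.

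The difference between the genotypes moved with the level of the member. Of the 28 members with a mean of 5 CPM or more, 28 had a log2 fold change below 0 with TMM factors, with a median of −0.31. Of all 2217 genes at that level, 66.3% lay below 0, with a median of −0.11. Of the 23 members between 2 and 5 CPM, 14 lay below 0, beside 48.3% of all genes there, and of the 26 members under 2 CPM, 12 did, beside 38.9%. The medians in these classes were −0.13 and 0.06 for members and 0.01 and 0.14 for all genes. On library totals without TMM factors, 14 of the 28, 8 of the 23 and 3 of the 26 members lay below 0, beside 22.7%, 13.1% and 18.7% of all genes in the classes. The medians were then −0.02, 0.18 and 0.35 for members and 0.19, 0.31 and 0.43 for all genes. With TMM factors, Spearman's rho of mean log2 CPM with log2 fold change was −0.59 across the 77 members and −0.22 across all genes, which are not independent replicates and share the same 8 libraries. The classes of 5 and 2 CPM were chosen after the values were seen.

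**Figure D5:**
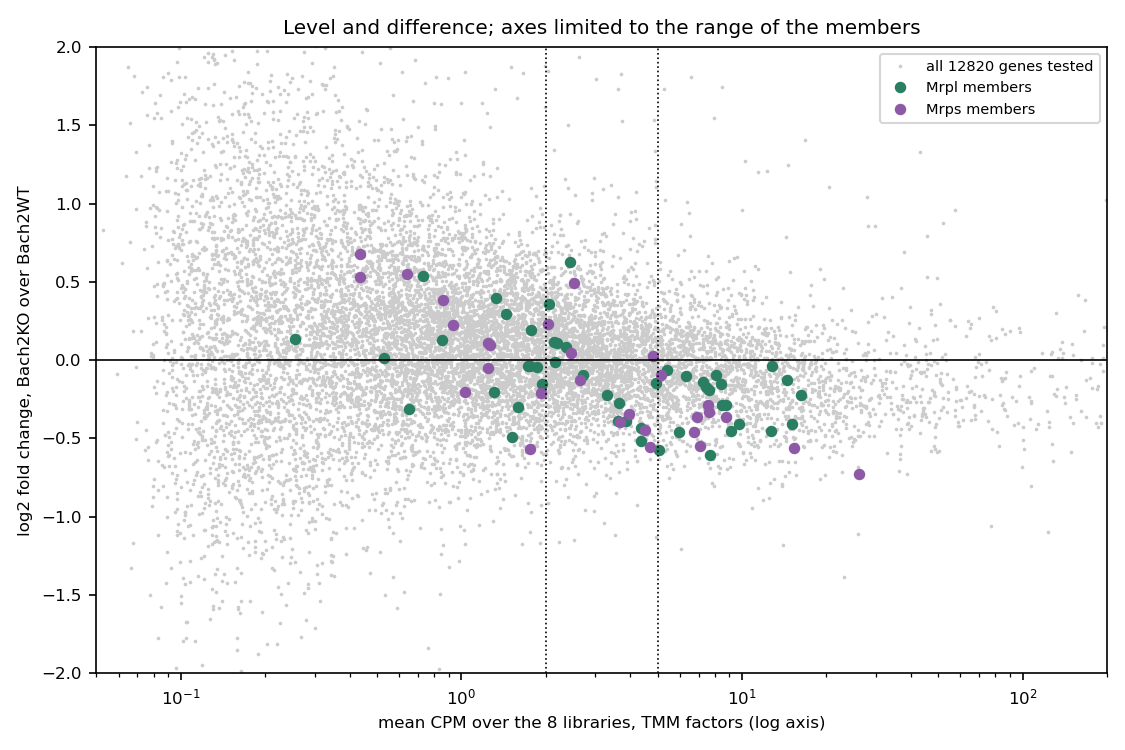
Mean CPM over the 8 libraries (log axis) against the log2 fold change of Bach2KO over Bach2WT after TMM scaling, for all genes tested (grey) and for the Mrpl and Mrps members, with dotted lines at 2 and 5 CPM and axes limited to the range of the members. All 28 members to the right of 5 CPM lie below 0 with this scaling, beside 66.3% of all genes at these levels, whereas on library totals without TMM factors 14 of the 28 and 22.7% of all genes do.

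By descent, the 30 Mrpl members with a bacterial counterpart had a median log2 fold change of −0.13 and the 18 found in mitochondria only one of −0.16. Both medians turned to 0.17 and 0.14 without TMM factors. Of the Mrps members, Mrps36 was in neither class, while Mrps18a and Mrps30 were kept in them. The 18 with a bacterial counterpart had a median of −0.34, with 13 below 0. The 10 found in mitochondria only had a median of 0.06, with 4 below 0. Without TMM factors the medians were −0.03 and 0.37. Mrps24, Mrps21, Mrps14 and Mrps15 belong to the former class, as do Mrps6 (0.68) and Mrps18c (0.39), while Mrps31, Mrps22 and Mrps35 belong to the latter, as do Mrps34 (−0.55) and Mrps25 (−0.57, chosen after its value was seen). The 2 Mrps classes also differed in level and length. The median was 1.36 FPKM in Bach2WT mice for those with a bacterial counterpart and 0.446 FPKM for the others. Their gene models had median lengths of 2130.5 and 3641 bases. After the length correction the median log2 fold changes were −0.24 and 0.12. The difference between the classes, and the part of level in it, were not tested.

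Members had shorter gene models than other genes, with a median length of 2542 bases for Mrpl and 2172 for Mrps, beside 4270 for all genes. After a correction for gene length within each library, the medians were −0.14 and −0.15. A correction for GC content gave −0.14 and −0.17. The coefficient of variation between mice of a genotype had a median of 18.9% in Bach2KO and 18.0% in Bach2WT mice over the 77 members.

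Females and males were compared as far as 2 mice per genotype and sex allow. In females the median log2 fold change was −0.31 for Mrpl, with 37 of 48 below 0, and −0.30 for Mrps, with 20 of 29 below 0. In males it was −0.0050, with 25 below 0, and −0.09, with 16 below 0. For no member did the interaction of sex and genotype reach an unadjusted p under 0.05, beside 6.14% of all genes, and the smallest adjusted p among members was 0.827. A difference between the sexes was therefore not detectable with these mice. Mrps24 and Mrpl24 had nearly equal values in females and males, with −0.72 and −0.72 for Mrps24 and −0.57 and −0.58 for Mrpl24. Both were picked for their small p in these same mice, which favours genes whose values agree between mice.

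Some ribosomal proteins of mitochondria carry other symbols. Among 5 such genes, Dap3, Chchd1, Aurkaip1, Ptcd3 and Gadd45gip1, 0 passed the threshold. Aurkaip1, a small-subunit protein, had 13.1, 14.9, 16.8 and 15.7 CPM in Bach2KO mice 1 to 4 and 18.5, 24.2, 19.5 and 23.9 CPM in Bach2WT mice 1 to 4. As for Mrps24, the genotypes did not overlap, and the log2 fold change was −0.51 ± 0.16 (SE, adjusted p = 0.531 with edgeR).

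The other genes of mitochondrial translation came from a list of factors. Of 20 genes for ribosome assembly and rRNA modification and 15 translation factors, none passed the threshold in either direction. The assembly genes were evenly divided, with 10 below 0 and a median of 0.08, and 8 of the 15 translation factors were below 0, with a median of −0.02. Without TMM factors, 3 and 1 were below 0. Tufm, the elongation factor that brings tRNA to the ribosome, had 9.55 ± 1.07 CPM in Bach2KO and 12.8 ± 2.48 in Bach2WT mice (SD, n = 4 each), with overlap and a log2 fold change of −0.42 ± 0.17 (SE, adjusted p = 0.642 with edgeR). The GTPase Mtg2, which acts in the assembly of the large subunit, had 2.15 ± 0.569 CPM in Bach2KO and 2.93 ± 0.501 in Bach2WT mice (SD, n = 4 each). The adjusted p of this gene was 0.742 with edgeR, at a log2 fold change of −0.44 ± 0.24 (SE).

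Of 7 tested regulators of mitochondrial biogenesis, 2 were below 0 and none passed. Myc, a transcription factor that drives growth and ribosome production, had 3.83, 1.88, 4.07 and 2.05 CPM in Bach2KO mice 1 to 4 and 2.12, 1.77, 2.17 and 1.04 CPM in Bach2WT mice 1 to 4. It was high in Bach2KO mice 1 and 3 only, and the other 2 lay within the range of the Bach2WT mice. The log2 fold change was 0.73 ± 0.32 (SE, adjusted p = 0.656 with edgeR). The median of the 7 regulators was 0.56 with TMM factors and 0.84 without, and that of the 4 genes for mitochondrial transcription was −0.05 and 0.25. With TMM factors, the direction differed between the sexes. The regulators had a median of 0.47 with 1 below 0 in females, and of −0.28 with 4 below 0 in males. For the transcription genes it was 0.36 with 1 below 0 in females, and −0.44 with 3 below 0 in males.

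The 2 mitochondrial rRNAs had 26.1 to 67.9 CPM together in Bach2KO and 41.9 to 55.8 CPM in Bach2WT mice, and the libraries were selected for poly(A) RNA. Both rRNAs were below 0 with TMM factors, and 1 of them without. The messages translated by the mitochondrial ribosome had 1214, 1146, 3434 and 1244 CPM together in Bach2KO mice 1 to 4 and 1386 to 1862 CPM in Bach2WT mice. Bach2KO mouse 3 lay above all Bach2WT mice, and the other 3 Bach2KO mice lay below all of them. The median log2 fold change of 12 tested messages was 0.17 with TMM factors, 0.15 with RLE factors and 0.46 with library totals, and none passed the threshold. Above 0 were 12 of 12 with TMM factors and library totals and 11 with RLE factors. Without Bach2KO mouse 3 the direction turned, with TMM factors, to a median of −0.38 and 11 of 12 below 0, with 6 at an unadjusted p under 0.05 and 0 past the threshold. In that fit, 633 of the 13701 genes tested were lower and 471 higher at that p. In females the median was −0.42 and in males, which include that mouse, 0.46. Cytosolic ribosomal proteins, which form the other ribosome of the cell, had 47 of 74 tested members below 0 and a median of −0.09 with TMM factors, against 4 of 74 and 0.23 without. At an unadjusted p under 0.05, 3 of the 74 (4.05%) were lower and 4 higher in Bach2KO mice. Of all genes, 3.56% were lower and 3.9% higher, so these counts were near the background.

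The summed markers of other cells overlapped between the genotypes for every cell type, and none of the markers tested passed the threshold. The 6 macrophage markers summed to 11.4 to 18.1 CPM in Bach2KO and 6.84 to 13.8 CPM in Bach2WT mice, with 4 of 6 above 0. The 6 T cell markers summed to 0.519 to 1.96 CPM and 0 to 1.29 CPM, with each of the 6 at 0 counts in at least 1 library. The 4 of them that were tested lay above 0, with a median log2 fold change of 1.21. In females, 2 of these 4 were below 0. Islet markers ranged from 230 to 2038 CPM in Bach2KO and from 185 to 2327 CPM in Bach2WT mice, and duct markers from 83.3 to 132 and from 107 to 152 CPM. Adipocyte markers ranged from 2.06 to 5.38 CPM in Bach2KO and from 0.893 to 10.6 CPM in Bach2WT mice. Of 3 tested adipocyte markers, 2 were below 0 and 1 above, with a median log2 fold change of −1.58. Markers of B and plasma cells summed to 4.97 to 16.2 and 3.66 to 9.77 CPM, those of eosinophils to at most 0.185 and 0.0222 CPM, and those of skeletal muscle to at most 0.497 and 0.480 CPM. The part of these cells in the levels of the members was not tested. In bulk tissue, fewer cells of a type and less RNA per cell cannot be told apart.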

How the data were processed

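Pancreatic RNA of 8 mice was sequenced after poly(A) selection. Per the labels, the authors' processing notes name fastp, HISAT2 (version 2.2.1), featureCounts (version 2.0.6) and the genome build mm39. The authors deposited 1 table with raw counts per gene and library, counts divided by 1 factor per library, and FPKM. The deposited FPKM equal counts per length and library total times 1 constant per library, 0.807 to 0.939 in Bach2KO and 0.886 to 1.2 in Bach2WT mice. The table further holds the authors' fold changes and p-values, which were not used. The gene length used by the authors, as deposited, served for a length correction. Even numbers made up 52.8% to 56.1% of the counts above 20, so that both mates of a read pair may have been counted. Strand use in counting is not given in the sources used here.

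Library totals were 72299745 to 172029360 counts. Genotypes were compared with edgeR 4.0.16 (R 4.3.3; quasi-likelihood fit and test, TMM factors, filterByExpr on genotype, no covariate), Benjamini-Hochberg adjustment over 12820 genes and a threshold of 0.05. The common dispersion was 0.192. The procedure was tested on simulated counts whose changes were larger than that of any member. That test does not show whether changes of the observed size would be found. Other settings tried were DESeq2 1.42.0, a block for the replicate number, sex added to the model, RLE in place of TMM factors, totals counted without the digestive enzymes, fits on every gene or on genes with 10 or more counts in each library, offsets from loess curves (span 0.3) of gene length or GC content, and the omission of single mice. Library totals without TMM factors were added after seeing the data. GC content came from the GRCm38 annotation, matched by Ensembl identifier for 99.35% of genes. All pairs of replicates differed beyond counting noise.

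Named were, for Mrpl and Mrps apart, the 5 members with the smallest p, the 3 with the largest log2 fold change above 0, the 4 with the highest and the 2 with the lowest FPKM in Bach2WT mice, and Mrps18a, Mrps30 and Mrps36 for their symbols, beside the 4 genes of the mitochondrial translation list with the smallest p. The members, lists and tests were chosen with earlier results of these data known. Counterparts in bacteria were assigned from textbook knowledge.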

Additional observations from a re-analysis of the deposited data

Results flagged for a closer look

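Among the 52 groups of 4 mice examined for the named members and the sums of the subunits, 3 held a mouse far from the other 3 by Dixon's test, about the 1 in 20 that chance gives. Mrps6 had 0.0864 CPM in Bach2WT mouse 4 and 0.389 to 0.450 CPM in the other Bach2WT mice. Mrps9 had 1.5 CPM in Bach2KO mouse 1, above 0.767 to 0.885 CPM in the other Bach2KO mice. Mrps36 had 1.04 CPM in Bach2KO mouse 1, below 1.28 to 1.31 CPM in the others. Without the mouse in question, the log2 fold change was 0.37 for Mrps6, −0.04 for Mrps9 and 0.02 for Mrps36, in place of 0.68, 0.23 and −0.05. None of the 3 genes passed the threshold with or without it.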

How the results depend on the processing

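The absence of Mrpl members past the threshold was the same under every alternative, and DESeq2 called 1 Mrps member, Mrps24. Over all genes, DESeq2 called 80 and the fit without a filter 73, in place of 1. The fits with at least 10 counts in every library, with sex as a covariate, with GC correction, with the replicate block and with the block and length correction called 0, as did all 8 fits that left out a mouse (0 to 0). Of the Mrpl members lower at an unadjusted p under 0.05, 8 became 5 with the replicate block and length correction, 0 without TMM factors and 3 to 12 when a mouse was left out. For Mrps, 7 became 1 without TMM factors and 1 to 10 when a mouse was left out. Over all genes, the 457 lower at that p became 491 with the block and length correction and 47 without TMM factors. They numbered 273 to 633 when a mouse was left out. The median log2 fold changes turned to 0.15 for Mrpl and 0.11 for Mrps without TMM factors, where the median of all genes moved from 0.05 to 0.35 and the share of higher calls at an unadjusted p from 52.2% to 97.1%. When a mouse was left out, the medians stayed below 0 (−0.21 to −0.09 and −0.28 to −0.15). The direction turned for Mrpl12 without TMM factors (0.0775), for Mrpl1 when a mouse was left out (−0.13 to 1.00), for Mrps9 likewise (−0.0392 to 0.64), and for Mrps36 with the replicate block (0.0089), the length correction (0.0503), both (0.11), library totals (0.26) and a mouse left out (−0.20 to 0.20). The cause was not tested. Same-numbered mice of the genotypes correlated with 0.212, −0.034, −0.041 and −0.054, beside −0.165 to 0.106 for mice of different numbers. Only the value of mice 1 lay above that range, and the numbers were not taken as pairs. The replicate block changed no call of a member. Counts of low members limit precision, with a median standard error of 0.22 (log2) for Mrpl and 0.23 for Mrps.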
